A study of Mus musculus with 18 samples.

Results

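The 9 genes described here form the Kit, PI3K and FOXO signalling route of the ovarian follicle. They were chosen by name: the receptor gene Kit, its ligand gene Kitl, the FOXO factor genes Foxo1 and Foxo3, the kinase genes Pik3ca, Pdpk1 and Akt1, and the tuberous sclerosis genes Tsc1 and Tsc2. They are 9 of the 55416 genes in the deposited tables. All 9 were matched by Ensembl identifier and passed the filter on low counts, which left 16959 genes to test.

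The data come from ovaries of 18 wild-type Balb/c female mice, 1 library per mouse, in 3 groups of 6. Young controls (YC in the labels) were 8 weeks old and aged controls (OC) 40 weeks old, and both were given distilled water by mouth. Aged Samul-tang mice (OC+SM) were 40 weeks old and received samul-tang, a herbal decoction, at 2.5 g/kg. Dosing in all groups was 5 times a week for 4 weeks. Ovulation was then induced with pregnant mare serum gonadotropin (5 IU), followed after 48 hours by human chorionic gonadotropin (5 IU), and ovaries were taken 16 hours after the second hormone. Treated and untreated aged mice were kept apart within shared cages. The tissue was therefore hormone-stimulated, post-ovulatory and whole, and in such bulk samples fewer cells of a type and less RNA per cell cannot be told apart. The design asked how the aged ovary differs from the young ovary and what Samul-tang does in the aged ovary.

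In the follicle, granulosa cells make KIT ligand, and the receptor KIT sits on oocytes and on theca and interstitial cells. Active KIT recruits PI3K, whose lipid product lets PDPK1 activate AKT, and AKT in turn phosphorylates FOXO factors, which then leave the nucleus. FOXO3 in the nucleus of the oocyte holds primordial follicles dormant, and FOXO1 is the main FOXO factor of granulosa cells in growing follicles. The TSC1 and TSC2 proteins form a complex that restrains mTORC1, a growth-promoting kinase complex, and AKT relieves that restraint.

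The results turn mostly on Foxo1, Kit and Kitl, so the 250 bases before the RefSeq transcription start of each are shown, 5′ to 3′ on the strand of the gene. They are RefSeq sequences of build GRCm38.p6, while the counts were made on GRCm39, and RefSeq start-site windows were found for all 9 genes. Capitals mark matches on either strand to any of 6 motifs searched: the GC box written GGGCGG, the box CCAAT, the TATA box written TATAAA, the FOXO element written GTAAACA, the E-box written CACGTG and the NR5A half-site written AAGGTCA. GC boxes can overlap each other in a run of capitals.
Foxo1 chr3:52268087-52268336 (+ strand): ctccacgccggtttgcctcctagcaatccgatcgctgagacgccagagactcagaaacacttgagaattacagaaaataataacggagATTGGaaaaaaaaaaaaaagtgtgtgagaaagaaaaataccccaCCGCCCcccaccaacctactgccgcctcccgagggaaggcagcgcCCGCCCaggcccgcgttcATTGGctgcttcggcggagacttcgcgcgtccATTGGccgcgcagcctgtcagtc
Kit chr5:75574737-75574986 (+ strand): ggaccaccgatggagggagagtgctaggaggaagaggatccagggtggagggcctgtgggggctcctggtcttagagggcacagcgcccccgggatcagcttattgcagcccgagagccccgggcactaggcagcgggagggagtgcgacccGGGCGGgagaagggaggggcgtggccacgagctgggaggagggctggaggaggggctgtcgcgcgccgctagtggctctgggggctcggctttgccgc
Kitl chr10:100015571-100015820 (+ strand): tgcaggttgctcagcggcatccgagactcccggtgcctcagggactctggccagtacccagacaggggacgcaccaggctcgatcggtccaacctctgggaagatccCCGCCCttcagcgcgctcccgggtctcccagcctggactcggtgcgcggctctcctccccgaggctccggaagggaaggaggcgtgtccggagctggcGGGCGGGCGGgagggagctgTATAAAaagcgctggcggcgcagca
The Foxo1 window held 3 CCAAT boxes, starting 162, 55 and 23 bases before the start site, and 2 GC boxes. RefSeq gave Kit a pair of closely spaced start sites, and the window of the first listed is shown. It held 1 GC box, 98 bases before that start. Kitl had 3 GC boxes and a TATA box that began 25 bases before the start. Of 32851 RefSeq windows of the same length, 33.8% held a CCAAT box, 32.7% a GC box and 12.4% a TATA box. The FOXO element, found in 3.17% of windows, occurred in none of these 3 but did occur in 1 of 2 windows of Akt1, 161 bases before the start. E-boxes (6.02% of windows) and NR5A half-sites (4.08%) had no match in any window of the 9 genes. These are matches of letters in 250 bases only.

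Library totals, divided by 1000000, were 9.05 to 14.15 for young controls, 11.61 to 13.43 for aged controls and 14.2 to 20.35 for treated mice. Every treated library was therefore deeper than every control, young or aged. The most abundant gene, ENSMUSG00000119584, took 6.2% to 14.35% of counts in treated libraries. In aged controls it took 13.81% to 18.49% and in young controls 12.58% to 15.95%. Depth and treatment cannot be told apart by design, and counts thinned to the shallowest library were used as an alternative. Between aged and young controls, all 7 tested oocyte markers were lower (of 8 listed; Figla had too few counts), as were 4 of 8 granulosa, 4 of 7 theca and interstitial, and 4 of 5 smooth muscle markers. Luteal (2 of 8), endothelial (2 of 6) and macrophage markers (1 of 6) were higher where called. Of all genes tested, 6.03% were lower and 5.25% higher in that comparison. Mast cell, melanocyte and oviduct markers gave no call in that comparison (edgeR; 4, 3 and 2 tested). Their part in the results below was not tested unless a ratio to the panel is given.

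On the deposited TPM scale, which divides by effective gene length, Akt1 was the most abundant of the 9 genes and Kit the least. In young controls Akt1 stood at 71.4 ± 2.63 TPM (SD, n = 6) and Tsc2 at 26.7 ± 2.56 TPM. Foxo1 (14.4 ± 3.71 TPM), Pdpk1 (14.2 ± 2.26 TPM) and Kitl (13.4 ± 1.31 TPM) did not differ beyond their spread. Pik3ca was at 9.6 ± 0.551 TPM, ahead of Foxo3 (4.46 ± 0.836 TPM) and Tsc1 (4.15 ± 0.6 TPM), which again lay within their spread of each other. Kit had 2.27 ± 0.513 TPM. The kit used reads 3′ ends, for which a division by length is not designed, so this order is a description of the deposited scale only.

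From here levels are counts per 1000000 (CPM), scaled by edgeR's TMM factors, and differences are log2 fold changes, each with its standard error (SE). Numbers in brackets after a fold change give that SE. A gene was called at a Benjamini-Hochberg adjusted p under 0.05 over all genes tested. Between aged and young controls, 1 of the 9 genes was called, against 11.3% of all genes, and it was Foxo1, which fell (5.25% of all genes were higher and 6.03% lower). Between aged Samul-tang and young controls, 3 of 9 were called against 22.4% of all genes: Foxo1 and Kitl were lower and Akt1 higher, beside 10.9% of all genes lower and 11.5% higher. Those groups differ in age, treatment and depth at once, which cannot be told apart there. Between aged Samul-tang and aged controls none of the 9 was called, against 1.04% of all genes. In that comparison 3 of 9 had an unadjusted p under 0.05 in edgeR (Akt1, Pdpk1 and Kitl), against 16.9% of all genes, and DESeq2 called none, against 3.77%. The median log2 fold change of the 9 was 0.01, -0.07 and -0.06 in these comparisons, in that order, beside 0.01, 0.00 and 0.01 for all genes tested. The share called in the first comparison was thus close to that of all genes.

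**Figure D1:**
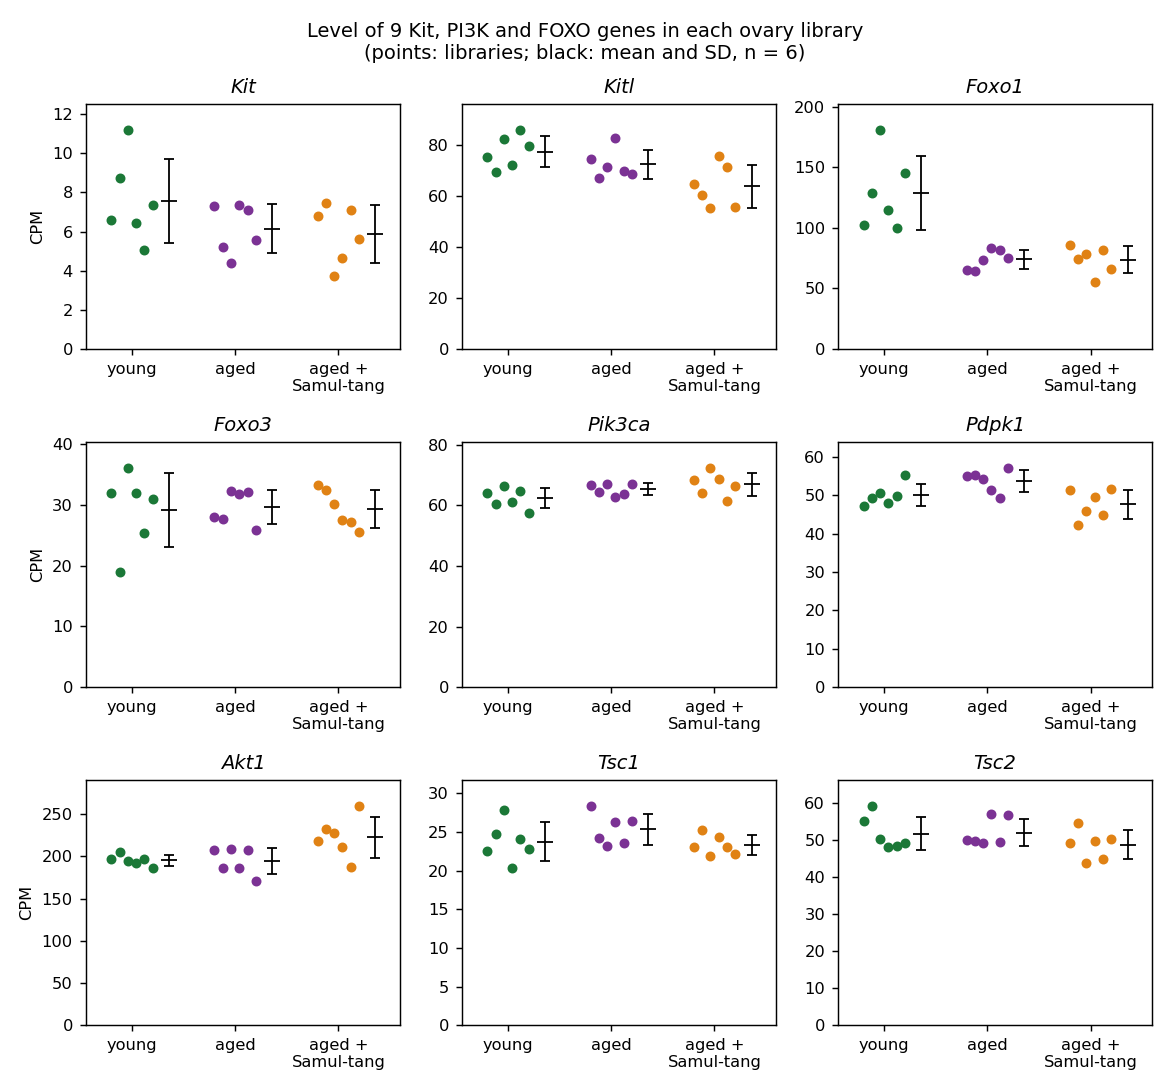
Level of each of the 9 genes in CPM (vertical axis, from 0) in every library of the 3 groups (horizontal axis). Points are libraries and the black mark is the mean with SD (n = 6). Foxo1 is the gene whose aged libraries, with and without Samul-tang (55.4 to 85.8 CPM), all lie below the young ones (100 to 181 CPM).

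Kit (ENSMUSG00000005672) encodes the receptor tyrosine kinase at the head of the route. It ranged from 5.05 to 11.2 CPM with a median of 6.98 in young controls, from 4.39 to 7.35 with a median of 6.33 in aged controls, and from 3.73 to 7.46 with a median of 6.19 in aged Samul-tang mice. The groups overlapped, and the highest value belonged to young control 3. The order of the means was young (7.56 ± 2.15 CPM), aged control (6.15 ± 1.26) and aged Samul-tang (5.89 ± 1.48; SD, n = 6), and no neighbours in it differed beyond their spread. The log2 fold change with age was -0.29 (SE 0.20, edgeR adjusted p = 0.4), with a 95% confidence interval from -0.69 to 0.12. Kit rested on 51 to 135 counts per library, the fewest of the 9 genes.

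The interval of Kit did not reach the falls of the oocyte markers, whose log2 fold changes with age ran from -1.94 to -1.46. The same was expressed within libraries, as the difference between log2(CPM + 0.5) of Kit and the mean of the 8 oocyte markers. All tested markers of that panel fell, so any gene that stays level gives a higher ratio. The ratio is thus no separate support, and a higher value is no rise of Kit itself. That log2 ratio ran from -0.66 to 0.22 (median -0.46) in young controls, from 0.41 to 1.41 (median 0.72) in aged controls and from -0.17 to 1.23 (median 0.55) in aged Samul-tang mice. Every aged control lay above every young control. The difference was 1.23 (0.86 ± 0.39 against -0.38 ± 0.31, SD, n = 6; two-sided exact permutation p = 0.00216, adjusted p = 0.00866). In treated against young mice it was 0.99 (exact permutation p = 0.00433, adjusted p = 0.0148, n = 6), and in treated against untreated aged mice -0.24 (exact permutation p = 0.377, adjusted p = 0.539, n = 6). There were 24 such ratio tests, over which p was adjusted, and with 6 against 6 libraries p cannot go below 0.00216.

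Kit is also a gene of theca and interstitial cells, and its ratio to that panel of 7 markers was likewise higher in aged controls. Those markers changed by -2.35 to 0.01 with age, a span that holds the -0.29 of Kit, so a higher ratio is no rise of Kit itself. The ratio was -2.03 ± 0.20 in aged and -2.66 ± 0.26 in young controls, a difference of 0.63 (exact permutation p = 0.00216, adjusted p = 0.00866, SD, n = 6), with no overlap of the groups. On the deposited TPM scale that difference was 0.53 and missed the threshold (adjusted p = 0.0693). In treated against young mice the difference was 0.41 (exact permutation p = 0.00649, adjusted p = 0.0195, n = 6). In treated against untreated aged mice it was -0.22 (exact permutation p = 0.0541, adjusted p = 0.118, n = 6). It passed in 1 of 22 alternatives, without aged control 3 (-0.27, adjusted p = 0.0364). Mast cells also carry KIT, and their part in the level of Kit was not tested. Of 8 listed mast cell markers, Ms4a2 was at 0 in every control library but not in every treated one. Cpa3 did not exceed 1.37 CPM and Tpsb2 did not exceed 1.99 CPM in any library. The summed mast cell list ran from 21.7 to 70.1 CPM in young controls, 55.3 to 74.8 CPM in aged controls and 49.9 to 135 CPM in treated mice. In young and aged controls most of it was Hdc (50.9 ± 17.2 and 64.5 ± 6.45 CPM, SD, n = 6), a gene that other cells express too. Melanocyte markers, summed, stayed between 3.1 and 6.47 CPM in all libraries, with Tyrp1 and Mlana at or near 0.

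Kitl (ENSMUSG00000019966) encodes KIT ligand, which granulosa cells present to the oocyte and theca. Its level ran from 69.5 to 85.9 CPM (median 77.3) in young controls, 67 to 82.9 (median 70.5) in aged controls and 55.1 to 75.7 (median 62.5) in treated mice. Those were the lowest on average, though 2 of them, at 75.7 and 71.5 CPM, lay within the range of both control groups. Means were 77.4 ± 6.26, 72.4 ± 5.77 and 63.8 ± 8.47 CPM (SD, n = 6). Kitl was 17.6% lower in treated than in young mice, which also differ in age (log2 fold change -0.28, SE 0.08, edgeR adjusted p = 0.0134). That call held in all 28 alternatives. The neighbouring steps were not called: the log2 fold change was -0.10 (SE 0.08, edgeR adjusted p = 0.509) from young to aged control and -0.18 (SE 0.08, edgeR adjusted p = 0.238) from aged control to treated.

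Relative to a panel of 8 granulosa markers, Kitl was higher in aged than in young controls by 0.47 on the log2 scale, which did not pass after adjustment (0.49 ± 0.26 against 0.02 ± 0.30, SD, n = 6; exact permutation p = 0.026, adjusted p = 0.0675). Kitl itself changed by -0.10 with age while 4 of these 8 markers fell, so a higher ratio is no rise of Kitl. Without young control 5 the ratio difference was 0.54 and passed (adjusted p = 0.0462), but it did not pass in 22 of 23 alternatives. In treated against young mice the difference was 0.42 (exact permutation p = 0.0693, adjusted p = 0.139, n = 6). With Foxl2 alone in place of the panel the latter was 0.36 and passed (adjusted p = 0.0468), the only 1 of 23 alternatives to do so. Foxl2 stood at 145 ± 19 CPM in treated and 227 ± 28.5 CPM in young mice (SD, n = 6). Kitl itself changed by -0.28 between them, so this too is no rise of Kitl. The ratio of Kit to Kitl, receptor to ligand, did not separate the groups: it was -3.31 ± 0.41 in young, -3.47 ± 0.24 in aged and -3.36 ± 0.36 in treated mice (log2, SD, n = 6; exact permutation p = 0.424, 0.506 and 0.831, adjusted p = 0.539, 0.608 and 0.894, for aged against young, treated against aged and treated against young).

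Foxo1 (ENSMUSG00000044167) was the member with the largest difference. It ranged from 100 to 181 CPM (median 122) in young controls, from 64.4 to 83.5 (median 74.6) in aged controls and from 55.4 to 85.8 (median 76.4) in aged Samul-tang mice. No aged library, treated or not, reached the lowest young one. Means were 129 ± 30.7, 73.9 ± 7.96 and 73.6 ± 11.2 CPM (SD, n = 6). Foxo1 fell by 42.6% with age (log2 fold change -0.80, SE 0.13, edgeR adjusted p = 0.000543). Treated against young mice gave -0.80 (SE 0.13, edgeR adjusted p = 0.000324), a comparison that shares the 6 young libraries. Treated against untreated aged mice gave -0.00, with a 95% confidence interval from -0.28 to 0.28 (edgeR adjusted p = 0.991). Young control 3 had the highest level, and without it the fall with age was -0.68 and was still called (adjusted p = 0.000351).

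Some granulosa markers changed beside Foxo1. With age Esr2 changed by -1.84 (0.18), Nr5a2 by -0.61 (0.19), Inha by -0.45 (0.14) and Foxl2, a factor that keeps granulosa identity, by -0.37 (0.10); Fshr, Hsd17b1, Inhba and Wt1 were not called. The summed panel ran from 1100 to 1554 CPM in young, 762 to 1189 in aged and 580 to 1251 CPM in treated ovaries. Against that panel Foxo1 was lower in aged controls by 0.21 on the log2 scale, as a ratio of 0.52 ± 0.17 against 0.73 ± 0.10 (SD, n = 6), which did not pass after adjustment (exact permutation p = 0.0281, adjusted p = 0.0675). It passed against Foxl2 alone (-0.40, adjusted p = 0.00742), with log2(CPM + 2) (-0.25, adjusted p = 0.0289) and without aged control 3 (-0.27, adjusted p = 0.013). In the remaining 20 of 23 alternatives it did not pass. In treated against untreated aged mice the difference was 0.13 (exact permutation p = 0.284, adjusted p = 0.523, n = 6). Against Foxl2 alone it was 0.26 and passed (adjusted p = 0.0472), the only 1 of 23 alternatives to do so. Foxl2 stood at 145 ± 19 CPM in treated and 176 ± 27.1 CPM in untreated aged mice (SD, n = 6). Foxo1 itself changed by -0.00 between them, so this is no rise of Foxo1. In treated against young mice the difference in the ratio to the panel was -0.08 (exact permutation p = 0.426, adjusted p = 0.539, n = 6).

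Foxo3 (ENSMUSG00000048756), whose product guards the dormant follicle, showed no such fall. It ran from 18.9 to 36 CPM (median 31.4) in young, 25.8 to 32.3 (median 29.8) in aged and 25.5 to 33.2 (median 28.8) in treated mice, with full overlap and the lowest value in young control 2. Means were 29.2 ± 6.07, 29.6 ± 2.78 and 29.3 ± 3.11 CPM (SD, n = 6). The log2 fold change with age was 0.02 (SE 0.11, edgeR adjusted p = 0.938), and its 95% confidence interval, -0.21 to 0.26, leaves out the falls of every tested oocyte marker and that of Foxo1. The ratio of Foxo1 to Foxo3 within libraries was 2.12 ± 0.38 in young and 1.31 ± 0.14 in aged controls (log2 of CPM, SD, n = 6), a difference of -0.81 (exact permutation p = 0.00216, adjusted p = 0.00866). It was 1.31 ± 0.19 in treated mice and differed from untreated aged mice by 0.00 (exact permutation p = 0.972, adjusted p = 0.972, n = 6).

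The log2 ratio of Foxo3 to the oocyte panel was 1.52 ± 0.47 in young and 3.05 ± 0.33 in aged controls (SD, n = 6), a difference of 1.53 (exact permutation p = 0.00216, adjusted p = 0.00866). Foxo3 itself changed by 0.02 while all tested panel markers fell, so the ratio follows the panel and shows no rise of Foxo3. All aged controls (2.71 to 3.44) and all treated mice (2.50 to 3.27) lay above all young ones (0.61 to 1.89). Foxo3 is expressed widely outside oocytes, and the share of its counts that came from oocytes was not measured here.

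**Figure D2:**
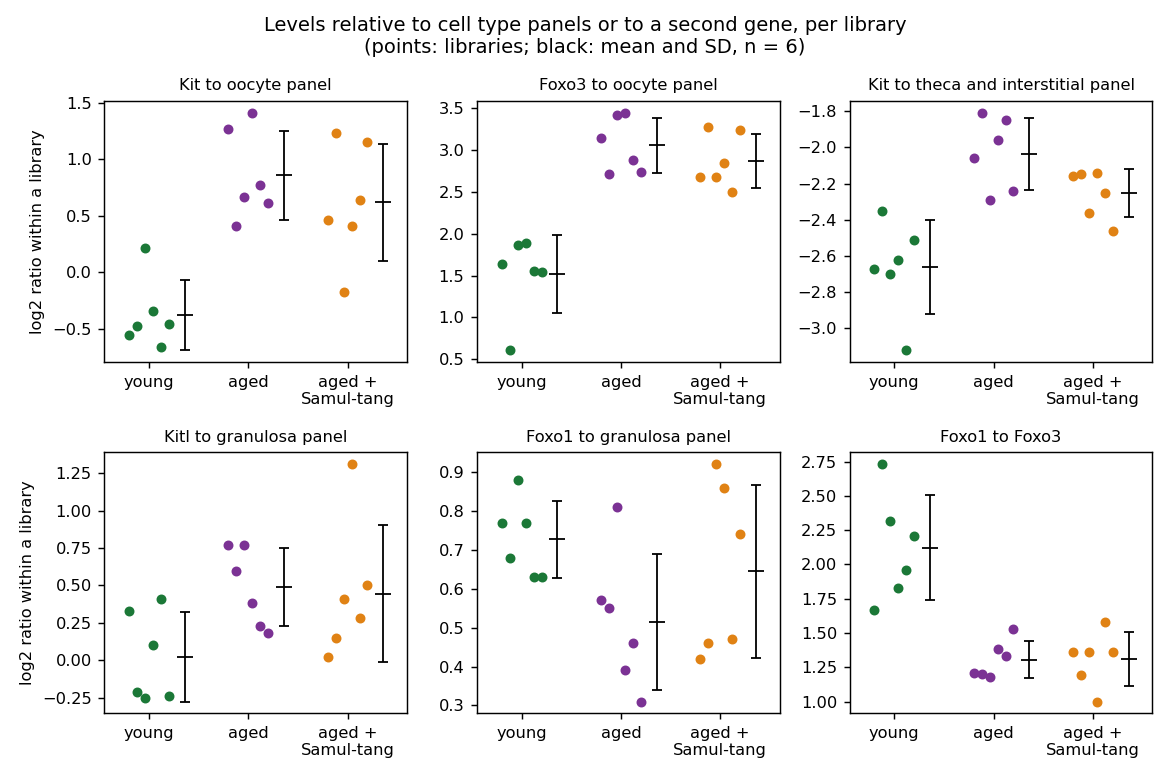
Log2 ratio within each library (vertical axis, differences of log2(CPM + 0.5), axes do not start at 0) of Kit, Foxo3, Kitl or Foxo1 to a cell type panel, and of Foxo1 to Foxo3, in the 3 groups. Points are libraries and the black mark is the mean with SD (n = 6). Ratios to the oocyte panel, whose tested markers all fell with age, are higher in aged than in young controls with no overlap. The Foxo1 to Foxo3 ratio is lower with no overlap.

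Of the kinases between receptor and FOXO factors, Pik3ca (ENSMUSG00000027665), the catalytic alpha subunit of PI3K, ran from 57.6 to 66.5 CPM (median 62.7) in young, 62.7 to 67.2 (median 65.8) in aged and 61.6 to 72.3 (median 67.4) in treated mice. These ranges overlapped, and none of its 3 contrasts was called (log2 fold changes 0.07, 0.03 and 0.10 for aged against young, treated against aged and treated against young). Its coefficient of variation within aged controls, 3.01%, was the lowest of any of the 9 genes in that group, where Kit had 20.4%.

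Pdpk1 (ENSMUSG00000024122), the kinase that activates AKT at the membrane, ran from 47.2 to 55.4 CPM (median 49.6) in young, 49.3 to 57.1 (median 54.6) in aged and 42.4 to 51.7 (median 47.7) in treated mice. It was lowest in treated mice on average, yet treated and aged control libraries overlapped. The log2 fold change of treated against aged control was -0.18 (SE 0.06; edgeR unadjusted p = 0.0117, adjusted p = 0.154; on the log2(TPM + 1) scale it was -0.03, limma adjusted p = 0.901). With age it was 0.10 (SE 0.06, edgeR adjusted p = 0.362).

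Akt1 (ENSMUSG00000001729), the AKT kinase with most counts here, ran from 186 to 205 CPM (median 196) in young, 171 to 209 (median 196) in aged and 187 to 259 (median 223) in treated mice. Of the treated libraries 5 lay above all controls and 1, at 187 CPM, within their range. Akt1 was higher in treated than in young mice by 0.19 (SE 0.07, edgeR adjusted p = 0.0484), at 223 ± 23.9 against 195 ± 6.46 CPM (SD, n = 6). That call rests close to the threshold: it held in 5 of 28 alternatives, with fold changes from 0.14 to 0.23, and was lost with counts thinned to the shallowest library (edgeR adjusted p = 0.0707). Against aged controls (194 ± 15.6 CPM) the difference was 0.20 (SE 0.07; edgeR unadjusted p = 0.00789, adjusted p = 0.131).

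Tsc1 (ENSMUSG00000026812) and Tsc2 (ENSMUSG00000002496), which encode the partners of the mTORC1-restraining complex, were not called in any contrast. Tsc1 ran from 20.4 to 27.8 CPM (median 23.4) in young, 23.2 to 28.3 (median 25.3) in aged and 21.9 to 25.3 (median 23.1) in treated mice. Tsc2 ran from 48.3 to 59.2 CPM (median 49.9), 49.3 to 57.1 (median 50) and 43.9 to 54.6 (median 49.6) in the same order. Both overlapped in all groups. With age the 95% confidence intervals of the log2 fold change were -0.07 to 0.26 for Tsc1 and -0.14 to 0.15 for Tsc2, and for treated against aged controls -0.28 to 0.04 and -0.24 to 0.05. Their log2 ratio was -1.11 ± 0.17, -1.03 ± 0.11 and -1.05 ± 0.08 in young, aged and treated mice (SD, n = 6; exact permutation p = 0.333 for aged against young, adjusted p = 0.533).

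**Figure D3:**
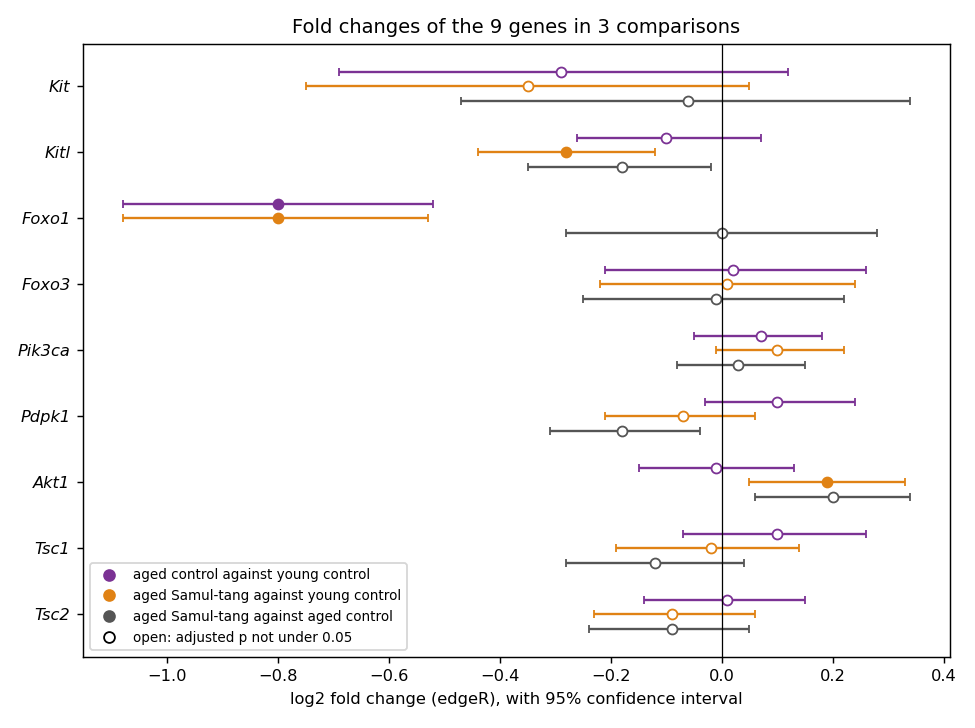
Log2 fold change (horizontal axis, edgeR) of the 9 genes (vertical axis) in the 3 comparisons, with 95% confidence intervals; filled points have an adjusted p under 0.05. The 2 comparisons with young controls share those libraries. Foxo1 stands at -0.80 in both, while the interval of treated against untreated aged mice spans 0.

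A further 71 genes of the route, listed by role, all passed the filter. With age 3 rose and 4 fell, 9.86% of the list against 11.3% of all genes, with a median log2 fold change of 0.04 against 0.01. Cdkn1b, an inhibitor of cyclin-dependent kinases that AKT and FOXO factors both act on, rose from 263 ± 24.9 to 396 ± 55.9 CPM (SD, n = 6; 0.59, SE 0.15, edgeR adjusted p = 0.0136). Deptor, a binding partner that inhibits mTOR, rose by 0.31 (0.07), and Sod2, the mitochondrial superoxide dismutase and a FOXO target, by 0.38 (0.06). For each of Cdkn1b, Deptor and Sod2 all aged controls lay above all young ones.

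The 4 that fell with age were Pik3cd, Pik3ip1, Gab2 and Pdk4, each with no overlap of the groups. All 7 genes that rose or fell were picked by calls on the same libraries, so separate ranges are no further support. The share of all genes with separate ranges was not counted. Pik3cd, a PI3K catalytic subunit best known from leukocytes, went from 20.8 ± 3.77 to 13.2 ± 1.57 CPM (SD, n = 6; -0.65, SE 0.12). Pik3ip1, which encodes a membrane inhibitor of PI3K and was listed with the phosphatases, changed by -0.61 (0.15), and the adaptor Gab2 by -0.53 (0.13). Pdk4, a FOXO target that inhibits pyruvate dehydrogenase, went from 2.44 ± 0.455 to 1.17 ± 0.432 CPM (-1.05, SE 0.32), with values from -1.19 to -0.35 over the alternatives and a call in 22 of 28. The list of 14 named for FOXO targets, which also holds G6pc3 (a glucose phosphatase gene not itself an established target), gave 1 higher and 1 lower. That is 14.3% of the list, beside 11.3% of all genes. The kinase gene Akt2 was not called (-0.04). No listed gene was called among other FOXO factors, mTORC1 outputs or AMPK and stress inputs, where the smallest p belonged to Foxo6 (0.19), Rps6kb2 (-0.13) and Prkab1 (0.22).

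Treated against young mice gave 13 of 71 higher and 6 lower, 26.8% against 22.4% of all genes, with a median of 0.02 against 0.00. Among AMPK subunit genes, whose kinase acts on the TSC complex, Prkaa2 was higher by 0.70 (0.14), Prkab1 by 0.43 (0.12) and Prkaa1 by 0.31 (0.08). Of mTORC1 machinery and outputs, Deptor was higher by 0.32 (0.07), the mTORC1 activator Rheb by 0.31 (0.09) and the ribosomal protein gene Rps6 by 0.24 (0.05). Eif4e (0.21, SE 0.07) and Eif4ebp1 (0.32, SE 0.11) were also higher, but held their calls in 17 and 6 of 28 alternatives. In the list named for FOXO targets 4 of 14 were higher, G6pc3 among them, and none lower, while the median of the list was -0.12. That is 28.6% of this short list called, beside 22.4% of all genes. Sod2 and Sesn1 were higher by 0.41 each (0.06 and 0.09) and Cat by 0.27 (0.08). G6pc3 was higher by 0.24 (0.08). Calls of Cat and Rheb held in 26 of 28 alternatives and that of G6pc3 in 22.

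The 6 genes lower in treated than in young mice were 3 from the list of KIT adaptors and attenuators, 2 PI3K subunits and Pik3ip1. Pik3cd (-0.66, SE 0.12), Pik3ip1 (-0.58, SE 0.14) and Gab2 (-0.51, SE 0.13) had values close to those with age, and both comparisons share the young libraries. The others were the PI3K regulatory subunit Pik3r1 (-0.35, SE 0.09), the exchange factor Sos1 (-0.28, SE 0.07) and the phospholipase Plcg1 (-0.28, SE 0.07). The adaptor Shc1 was higher (0.21, SE 0.06; called in 25 of 28 alternatives).

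Treated against untreated aged mice gave 0 of 71 calls in edgeR, against 1.04% of all genes; 18 had an unadjusted p under 0.05 (25.4%, against 16.9% of all genes), and DESeq2 called 3 (4.23%, against 3.77% of all genes). These 3 were Rps6, Prkaa2 and Sesn3, with edgeR adjusted p = 0.0636, 0.0722 and 0.104. Prkaa2 stood at 7.55 ± 0.978 against 5.33 ± 0.763 CPM (SD, n = 6; 0.50, SE 0.14), and Rps6 at 1059 ± 55.7 against 921 ± 49.8 CPM (0.20, SE 0.05). Sesn3, a FOXO target, was at 72.1 ± 24.7 against 117 ± 18.8 CPM (-0.70, SE 0.21).

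**Figure D4:**
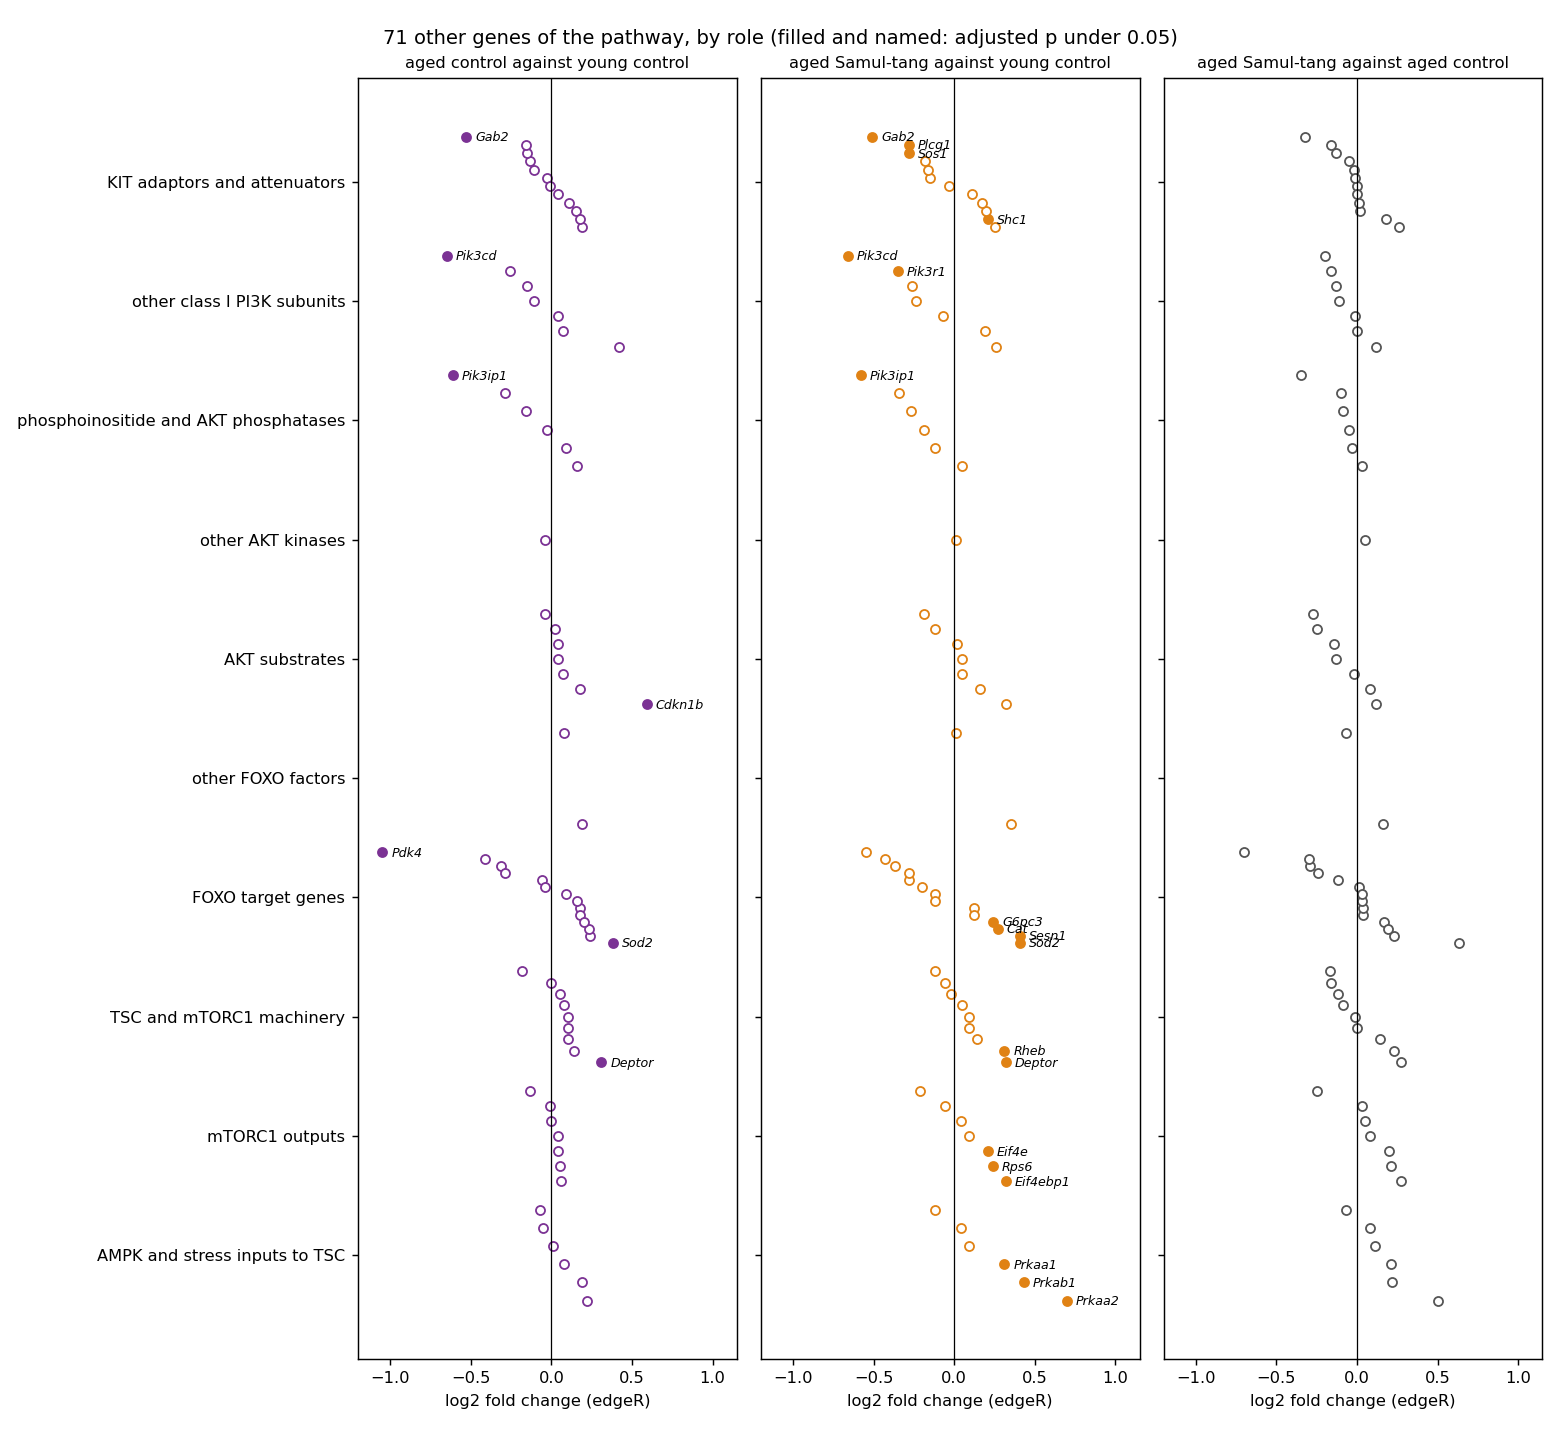
Log2 fold change (horizontal axis, edgeR) of 71 further pathway genes grouped by role (vertical axis; points are spread within a role only to keep them apart) in the 3 comparisons. Filled, named points have an adjusted p under 0.05: 7 genes with age, 19 in treated against young mice and 0 in treated against untreated aged mice.

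Genes whose levels followed those of a member most closely across mice were found after group means had been removed, over 18 libraries and 10408 genes. For Foxo1 these were Pick1, Peli2, Slco3a1, Esr2 and Sema5a, with Pearson coefficients of 0.89 to 0.90, and 0.79 to 0.89 without the 2 libraries farthest from the median of Foxo1. For Kit they were Gas6, Lama2, Cep97, Smim10l2a and Klhl31 (0.83 to 0.87, and 0.74 to 0.85 without the 2 farthest libraries). For Kitl they were Zer1, Sbf2, Arhgap17, Tnrc6b and Tcf4 (0.80 to 0.87, and 0.69 to 0.85). Those of Foxo3 were Wdr27, Mpzl3, Iba57, Ndel1 and Rai2 (0.79 to 0.81, and 0.50 to 0.75). These are the highest of many coefficients over libraries that share their scaling and depth, and are given as a description. Among the members themselves the closest pair was Kit and Foxo1, at 0.61.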

How the data were processed

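Whole-ovary RNA was made into QuantSeq 3′ libraries, per the labels' protocols. FastQC 1.9, STAR 2.7.9a, RSEM 1.3.3 and build GRCm39 are named in the submitters' processing notes; the sources used here do not give the annotation or strand setting, so overlapping and antisense genes may share reads. Per the file headers, the authors deposited expected counts, which are RSEM's estimated counts, and TPM values for each gene and library. Expected counts need not be whole: 103 of 162 values of the 9 genes lay within 0.005 of a whole number. They were rounded. Symbols were matched by Ensembl identifier (52083 of 55416).

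Genes were filtered with edgeR's filterByExpr (minimum count 10, total 15). All 18 libraries entered 1 fit of the edgeR 4.0.16 quasi-likelihood test (R 4.3.3, TMM scaling, robust, two-sided) with 3 group means; calls were made at adjusted p under 0.05. Within-library ratios used log2(CPM + 0.5) and exact permutation tests. Intervals are at 95%. Each CPM stood for 9 to 20 counts. The fit was tested on simulated data: for aged against young controls, of 100 genes changed by 0.5 (log2) 66 were called and of 100 changed by 1, 96, among 16685 genes, with 5 of 16485 unchanged genes called. The simulated counts came from the kind of model that the fit assumes, and only genes with a mean of at least 5 CPM were changed. These shares may therefore not hold for the real libraries or for a gene with few counts such as Kit. No 2 libraries were repeats: chi-square divided by its degrees of freedom was at least 4.1 in all 153 pairs.

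The 9 genes, the pathway list of 71 genes, the marker lists and the tests were chosen with earlier results of these data known. The text names all 9 members, pathway genes called in any comparison (or, for a role with none, the smallest p between aged and young controls) and, for 4 members, the 5 genes most alike across libraries. Sesn3 was named after its values were seen. Some genes of the route are not reported here. Alternatives covered scaling, DESeq2 1.42.0, the filter, the libraries fitted, log2 TPM with limma 3.58.1, depth, composition and each library left out. Labels number mice 1 to 6 in each group; same-numbered libraries did not deviate together (correlations from -0.253 to 0.188), so numbers were not used as pairs.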

Additional observations from a re-analysis of the deposited data

Results flagged for a closer look

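In each group of 6 libraries, a highest or lowest value was picked out where its gap to the nearest other divided by the group's range exceeded Dixon's 95% critical value. Of 51 groups tested, 4 had such a value; chance gives about 1 in 20. The log2 ratio of Kit to the oocyte panel was 0.216 in young control 3, against -0.34 in the next library. Foxo3 to the oocyte panel was 0.61 in young control 2, against 1.54 in the next. Kitl to the granulosa panel was 1.31 in aged Samul-tang 4, against 0.496 in the next. Tsc1 to Tsc2 was -0.818 in aged control 1, against -1.02 in the next. No CPM value of the 9 genes stood apart in this way.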

How the results depend on the processing

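Each gene-level result was recomputed under 28 alternatives and each ratio under 22 or 23. The calls of Foxo1 (both comparisons with young controls) and of Kitl (treated against young) held in all 28; of 756 values for the 9 genes, 684 kept direction and side of the threshold, 23 lost the call (all Akt1 in treated against young mice) and 49 changed sign, none of them called. The replicate number as a block ended the Akt1 call (0.19, adjusted p = 0.0803) and no other call of the 9 genes; same-numbered libraries had correlations of -0.253 to 0.188, and in 2 of 18 pairs of a library with another group its own number correlated best. Genes called between treated and untreated aged mice depended most on the choices: 639 with DESeq2, 45 with only the 12 libraries compared, 483 without young control 3 and aged Samul-tang 6, and 32 (without aged Samul-tang 3) to 593 (without aged Samul-tang 4) when 1 library was left out. Without young control 3 there were 380 and without aged Samul-tang 5, 318; without aged Samul-tang 1 there were 60, without aged controls 4, 3, 6, 1 and 2 there were 72, 78, 85, 99 and 102, and without aged Samul-tang 2 there were 105. Pathway genes called there were 3 with DESeq2, 1 with log2(TPM + 1), 1 without young control 3 and aged Samul-tang 6, and 0 to 4 with 1 library left out (4 without aged Samul-tang 4, 1 without young control 3). The cause was not tested.

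Sign changes were small. On log2(TPM + 1) and log2(TPM + 0.1), aged against young controls gave -0.05 and -0.05 for Foxo3, -0.01 and -0.01 for Pdpk1 and -0.11 and -0.12 for Tsc2; treated against untreated aged mice gave 0.01 and 0.04 for Kit, 0.06 and 0.07 for Foxo3, and 0.04 and 0.04 for Tsc2. With no filter, Akt1 (aged against young) and Foxo1 (treated against aged) gave 0.00, and with thinned counts the latter gave 0.01. Without young control 3 and aged Samul-tang 6, treated against aged mice gave 0.02 for Foxo1, 0.02 for Foxo3, -0.01 for Foxo1 to Foxo3 and 0.00 for Tsc1 to Tsc2, and treated against young mice gave 0.04 for Tsc1 and 0.02 for Kit to Kitl. Kit to Kitl was 0.01 with log2(CPM + 2), Foxo1 to Foxo3 (treated against aged) -0.07 with log2(TPM + 0.5), and Kitl to Foxl2 alone 0.08 (treated against aged). Leaving out 1 library, aged against young ranged from -0.08 to 0.09 for Foxo3, -0.03 to 0.03 for Akt1 and -0.02 to 0.05 for Tsc2. Treated against aged ranged from -0.15 to 0.04 for Kit, -0.06 to 0.06 for Foxo1, -0.05 to 0.02 for Foxo3, -0.22 to 0.04 for Kitl to granulosa, -0.05 to 0.06 for Foxo1 to Foxo3 and -0.04 to 0.02 for Tsc1 to Tsc2. Treated against young ranged from -0.09 to 0.07 for Foxo3, -0.07 to 0.02 for Tsc1 and -0.18 to 0.06 for Kit to Kitl. Depth limits Kit most, at 51 to 135 counts per library.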
